A study of Mus musculus with 12 samples.

Results

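The Gadd45 family (growth arrest and DNA damage inducible 45) comprises the 3 genes Gadd45a, Gadd45b and Gadd45g, which were found by symbol and read by Ensembl identifier among the 55414 gene records of the count matrix. They were chosen by their levels in these same libraries. Their levels and differences between groups are therefore given as a description, with no test of them. The libraries were made from CD4+ T cells purified by negative selection from the spleens of wild-type male BALB/c mice aged 18 weeks, which carried either a ligature around the maxillary molars (ligature-induced periodontitis, LIP) or no ligature (control, CTL). Cells were taken uncultured (day 0) or after 2 days in culture with IL-2, an antibody against TCRβ and an antibody against CD28 (day 2). The treatment labels of CTL 93 and LIP 96 of day 2 name CD29 in place of CD28, and those of CTL 97 and LIP 97 name CD30. Each of the 4 groups held 3 libraries, or 12 in all, and the labels do not say whether each library came from 1 mouse or from a pool. The spread between libraries may thus be partly technical.

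GADD45 proteins are small proteins without known enzyme activity that act by binding others. They bind and open MEKK4 (gene Map3k4), the kinase at the top of a cascade that activates the p38 and JNK MAP kinases, and they also bind PCNA, the CDK inhibitor encoded by Cdkn1a, and the CDK1-cyclin B1 complex. In T cells, Gadd45b and Gadd45g are known for promoting interferon gamma production by Th1 cells through MEKK4 and p38, whereas Gadd45a, the classical p53 target of the family, is known for restraining p38 downstream of the T cell receptor. The annotation deposited with the data gave 6 biological process terms to all 3 genes, among them positive regulation of the p38 MAPK cascade, of the JNK cascade and of the apoptotic process. The terms T-helper 1 cell differentiation and interferon-gamma production were attached to Gadd45g and not to the other members, and cell cycle arrest and the response to DNA damage to Gadd45a.

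All 3 genes are short, protein-coding and built of 4 exons in their canonical transcripts (GRCm39, GENCODE release M39). Gadd45a (ENSMUSG00000036390) lies on the minus strand of chromosome 6 at 67012070 to 67014441, with a canonical transcript of 1233 bases. The long noncoding RNA E230016M11Rik, on the opposite strand, overlaps it. This RNA was counted at 0.0896 to 2.41 CPM across the libraries. The library kit keeps strand, but the sources used here do not state the strand setting of the counting. Gadd45b (ENSMUSG00000015312) lies on the plus strand of chromosome 10 at 80764523 to 80768038 (1284 bases), and Gadd45g (ENSMUSG00000021453) on the plus strand of chromosome 13 at 52000714 to 52002508 (1071 bases). No other gene overlaps Gadd45b or Gadd45g.

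The promoters are shown because Gadd45b and Gadd45g, and not Gadd45a, had higher mean levels after culture in both groups of mice. The 250 bases before each start are written 5′ to 3′ on the strand of the gene, from RefSeq on build GRCm38.p6, which is not the build of the counts. Capitals mark the CCAAT box (CCAAT), the TATA box (TATAAA) and the E box (CACGTG).
Gadd45a, chr6:67037408-67037657, minus strand: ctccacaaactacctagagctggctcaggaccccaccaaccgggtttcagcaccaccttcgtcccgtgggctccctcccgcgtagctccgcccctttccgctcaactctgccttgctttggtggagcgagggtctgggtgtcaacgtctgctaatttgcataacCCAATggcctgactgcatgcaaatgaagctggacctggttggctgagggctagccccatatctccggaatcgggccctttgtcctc
Gadd45b, chr10:80929841-80930090, plus strand: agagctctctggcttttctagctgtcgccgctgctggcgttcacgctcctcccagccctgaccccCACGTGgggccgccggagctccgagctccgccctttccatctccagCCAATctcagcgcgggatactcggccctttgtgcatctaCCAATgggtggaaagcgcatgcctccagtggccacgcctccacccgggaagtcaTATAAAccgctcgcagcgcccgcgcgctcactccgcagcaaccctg
Gadd45g, chr13:51846425-51846674, plus strand: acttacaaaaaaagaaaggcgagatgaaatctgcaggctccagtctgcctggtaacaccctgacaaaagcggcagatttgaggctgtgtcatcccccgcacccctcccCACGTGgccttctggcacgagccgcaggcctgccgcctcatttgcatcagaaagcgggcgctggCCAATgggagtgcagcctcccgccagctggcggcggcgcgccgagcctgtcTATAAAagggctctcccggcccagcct
A CCAAT box stood in all 3 windows, at 86 bases before the start in Gadd45a, at 139 and 100 in Gadd45b and at 78 in Gadd45g (position of its first base). The windows of Gadd45b and Gadd45g also held a TATA box, at 46 and 27 bases before the start, and an E box, at 185 and 142. The window of Gadd45a held neither of these letter strings. Among the 32851 promoter windows of this length in the table, 33.8% held the CCAAT box, 12.4% the TATA box and 6.02% the E box on either strand. The AP-1 motif (TGANTCA) and the NF-kB motif were found in none of the 3 windows and in 6.75% and 5.93% of all windows. A match is a run of letters, not a site shown to be bound.

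Levels are given as CPM, counts scaled to a common library total after TMM normalization over the 12 libraries. The totals ranged from 6249018 to 7845676 counts in CTL and from 6279986 to 6625831 in LIP on day 0, and from 8993191 to 9842586 in CTL and from 8691699 to 12866718 in LIP on day 2. A count of 3 corresponded to 0.269 to 0.452 CPM. The defining transcripts of CD4 T cells (7 genes) summed to 1964 to 3179 CPM in every library. The 2 CD8 genes summed to 13.2 and 9.20 CPM in LIP 96 and LIP 97 of day 2 and to 4.43 to 6.74 in the other libraries. Libraries LIP 90 and LIP 96 of day 2 differed most among replicates, with a chi-square per gene of 48.4 where replicate pairs started at 2.99. The 6 B cell markers summed to 32.7 and 30.6 CPM in LIP 96 and LIP 97 of day 2, to 20.1 in CTL 97 of that day and to no more than 5.42 in the other 9 libraries. The part of CD8 and B cells in the values below was not tested, and in bulk RNA fewer cells of a type and less RNA per cell cannot be told apart. LIP 90 held 0.896 CPM of the B cell markers. It differed more from LIP 96 and LIP 97 (chi-square per gene 48.4 and 38.6) than these did from each other (11.9). The differences between LIP and CTL on day 2 are therefore also given without LIP 90. That comparison keeps only the 2 LIP libraries with the higher B cell and CD8 sums, LIP 96 and LIP 97.

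Gadd45g was nearly silent in uncultured cells and was the member with the largest fold between the days, over a base of 3 to 7 counts. In CPM, the means of LIP cells differed more for Gadd45b (5.25 on day 0 and 26.1 on day 2) than for Gadd45g (0.505 and 6.60). On day 0 its counts were 5, 7 and 4 in CTL 88, 89 and 94 (0.753, 0.843 and 0.526 CPM) and 4, 4 and 3 in LIP 92, 93 and 94 (0.551, 0.563 and 0.401 CPM). These 6 libraries stood close to the floor of 3 counts. On day 2 the CTL libraries 92, 93 and 97 held 95, 84 and 108 counts (10.0, 10.0 and 12.3 CPM). The LIP libraries 90, 96 and 97 held 104, 65 and 34 counts (9.31, 6.09 and 4.40 CPM). Every day 2 library lay above every day 0 library, and every LIP library of day 2 lay below every CTL library, although LIP 90 came within the counting error of the CTL libraries (95% Poisson interval 7.61 to 11.3 CPM).

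Gadd45b was present in uncultured cells and reached its highest level in cultured cells of the LIP group. On day 0 it was measured at 7.83, 5.06 and 3.95 CPM in CTL 88, 89 and 94 and at 4.82, 4.78 and 6.15 CPM in LIP 92, 93 and 94, and the groups overlapped. After culture the CTL libraries 92, 93 and 97 held 11.3, 7.29 and 12.5 CPM, of which 93 lay below the highest uncultured library, CTL 88. The LIP libraries 90, 96 and 97 held 20.6, 34.9 and 22.8 CPM (230, 373 and 176 counts). All 3 lay above every other library of the series, and the lowest of them had an interval of 18.0 to 23.4 CPM, whereas that of the highest CTL library was 10.3 to 15.1.

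Gadd45a stayed at a low level in all groups. It was measured at 5.27, 3.61 and 4.21 CPM in CTL 88, 89 and 94 and at 3.72, 3.10 and 4.14 CPM in LIP 92, 93 and 94 on day 0. On day 2 the CTL libraries 92, 93 and 97 held 2.64, 1.67 and 2.27 CPM, below every uncultured library. The cultured LIP libraries did not move together. LIP 90 (2.33 CPM) lay within the CTL range of day 2, LIP 97 (3.63 CPM) within the uncultured range, and LIP 96 (7.02 CPM, 75 counts) above all other libraries.

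**Figure D1:**
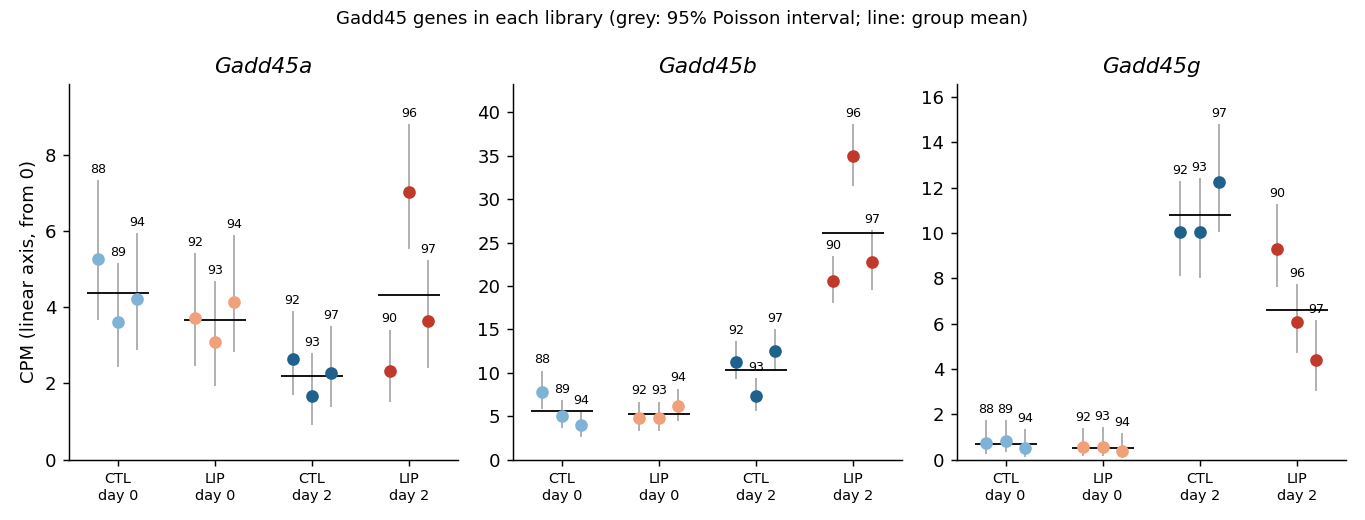
CPM of Gadd45a, Gadd45b and Gadd45g (one panel each, linear axis from 0) in the 12 libraries, by group on the x axis. Points are libraries with their label numbers, grey bars are 95% Poisson intervals of the counts and black lines are group means. The 3 cultured LIP libraries lie above the cultured CTL libraries for Gadd45b (20.6 to 34.9 against 7.29 to 12.5 CPM) and below them for Gadd45g (4.40 to 9.31 against 10.0 to 12.3 CPM).

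In order of mean level, Gadd45g was highest in CTL of day 2 (10.8 ± 1.29 CPM, SD, n = 3), followed by LIP of day 2 (6.60 ± 2.50), CTL of day 0 (0.707 ± 0.163) and LIP of day 0 (0.505 ± 0.0903). The last pair overlapped. For Gadd45b the order was LIP of day 2 (26.1 ± 7.71 CPM, SD, n = 3), CTL of day 2 (10.4 ± 2.73), CTL of day 0 (5.61 ± 2.00) and LIP of day 0 (5.25 ± 0.776), of which only the first stood clear of its neighbour. For Gadd45a the order was CTL of day 0 (4.37 ± 0.842 CPM, SD, n = 3), LIP of day 2 (4.33 ± 2.42), LIP of day 0 (3.65 ± 0.527) and CTL of day 2 (2.20 ± 0.490). The first 3 of these did not differ beyond their spread. Without LIP 90 the means of cultured LIP cells were 5.25 CPM for Gadd45g, 28.9 for Gadd45b and 5.32 for Gadd45a (n = 2), and Gadd45a was then highest in that group.

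The first comparison asks how the family differed between mice with and without periodontitis before any culture. On day 0 the log2 fold change of LIP over CTL was −0.24 for Gadd45a (SE 0.26) and −0.07 for Gadd45b (SE 0.27), and the groups overlapped for both. Gadd45g did not pass the filter on low counts in this comparison, and a fit without the filter gave −0.47 (SE 0.71), also with overlapping groups. Over all 14064 genes tested on day 0, the groups lay apart in either direction for 19.1%, and 0.427% had an adjusted p under 0.05 in edgeR's quasi-likelihood test. The value of Gadd45b turned to 0.22 without CTL 88. In uncultured cells LIP and CTL thus overlapped for every member of the family.

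In cultured cells the members of the family differed from CTL in opposite directions. On day 2 the log2 fold change of LIP over CTL was 1.32 for Gadd45b (SE 0.26), a fold of 2.50, and −0.71 for Gadd45g (SE 0.27), a fold of 0.613. That of Gadd45a was 0.96 (SE 0.43), a fold of 1.95, with overlapping groups. Groups apart, as in Gadd45b and Gadd45g, were found for 21.5% of the 14041 genes tested on day 2, so that separation by itself was common. The share of genes with an adjusted p under 0.05 in edgeR's quasi-likelihood test was 0% on day 2, or 0 genes, while 2322 had an unadjusted p under 0.05 and DESeq2 called 489. Without LIP 90 the log2 fold changes were 1.30 for Gadd45a (SE 0.36), 1.50 for Gadd45b (SE 0.24) and −1.01 for Gadd45g (SE 0.23), and edgeR called 2014 genes of the whole table (13.9%). Without LIP 96 the value of Gadd45a was 0.42 (SE 0.38), so its value rested in large part on that library, whereas Gadd45b kept 1.07 (SE 0.24) and Gadd45g −0.63 (SE 0.31). Leaving out LIP 97 gave −0.49 (SE 0.25) for Gadd45g, the smallest difference in this gene.

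The effect of culture and stimulation, which cannot be told apart from the 2 days that passed, was given for each group of mice. In CTL cells the log2 fold change of day 2 over day 0 was 3.90 for Gadd45g (SE 0.33), a fold of 14.9, then 0.90 for Gadd45b (SE 0.29) and −0.97 for Gadd45a (SE 0.37). In LIP cells it was 3.69 for Gadd45g (SE 0.36), a fold of 12.9, then 2.31 for Gadd45b (SE 0.28), a fold of 4.96, and 0.25 for Gadd45a (SE 0.35). The days lay apart for Gadd45g in both groups, for Gadd45b in LIP cells and for Gadd45a in CTL cells. Such changes were the rule among the 15475 genes tested. In CTL cells 69% had an adjusted p under 0.05 in edgeR's quasi-likelihood test and 73.3% had days apart, and in LIP cells the shares were 71.8% and 74.8%. Without LIP 96 the value of Gadd45a in LIP cells turned to −0.31, and without LIP 90 it was 0.57. The difference between the days of the LIP effect (the interaction of group and day) was 1.22 for Gadd45a (SE 0.52), 1.41 for Gadd45b (SE 0.40) and −0.21 for Gadd45g (SE 0.60) on the log2 scale. Without LIP 96 the interaction of Gadd45a was 0.66, and without LIP 97 that of Gadd45g was 0.00218. Over all genes, the interaction had an adjusted p under 0.05 for 0.0517%, or 8 of them.

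**Figure D2:**
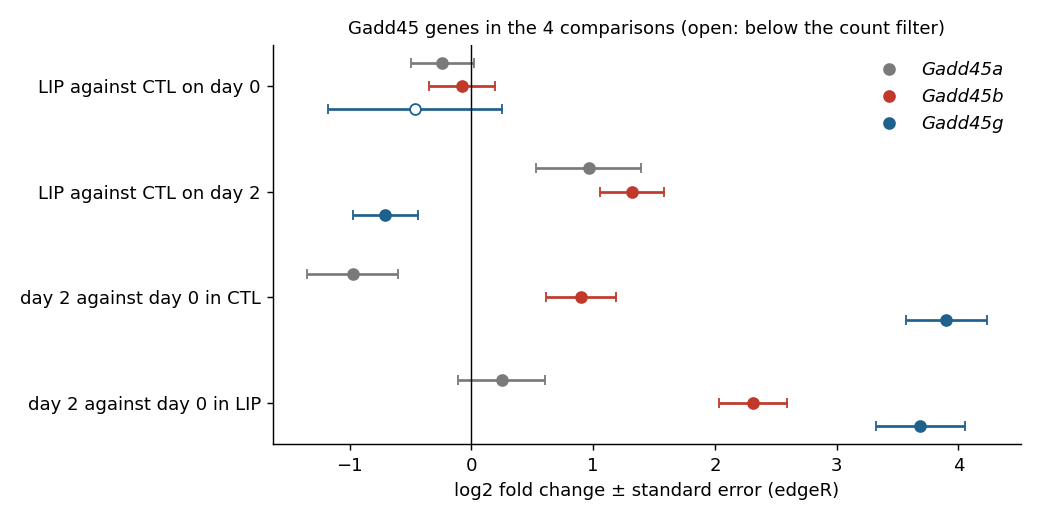
Log2 fold changes (x axis) of the 3 genes in the 4 comparisons (y axis), with bars of 1 standard error derived from edgeR's F statistic. The open point is Gadd45g on day 0, which lay below the count filter. Gadd45b and Gadd45g lie on opposite sides of 0 for LIP against CTL on day 2 (1.32 and −0.71) and both to the right of 0 for day 2 against day 0.

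The make-up of the family was therefore compared within each library, on counts divided by the length of the canonical transcript. Uncultured CTL cells held 41.9% ± 6.06 Gadd45a, 50.2% ± 5.62 Gadd45b and 7.89% ± 2.10 Gadd45g (SD, n = 3). Uncultured LIP cells held 39.3% ± 2.14, 54.3% ± 2.43 and 6.41% ± 1.78 of the same genes in the same order. In cultured CTL cells Gadd45g made up 51.0% ± 5.61, Gadd45b 40.1% ± 4.76 and Gadd45a 8.94% ± 1.40. In cultured LIP cells Gadd45b made up 67.4% ± 6.25, Gadd45g 21.3% ± 9.86 and Gadd45a 11.2% ± 3.87. Cultured LIP and CTL cells did not overlap in the share of Gadd45b (60.2% to 71.6% against 34.6% to 43.3%) or of Gadd45g (14.7% to 32.7% against 46.1% to 57.1%). Without LIP 90 the mean shares of cultured LIP cells were 71.0% Gadd45b, 15.7% Gadd45g and 13.3% Gadd45a (n = 2). The 3 genes together summed to 10.7 ± 2.78 CPM in CTL and 9.41 ± 1.16 in LIP on day 0, and to 23.3 ± 4.06 in CTL and 37.0 ± 9.55 in LIP on day 2 (SD, n = 3).

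**Figure D3:**
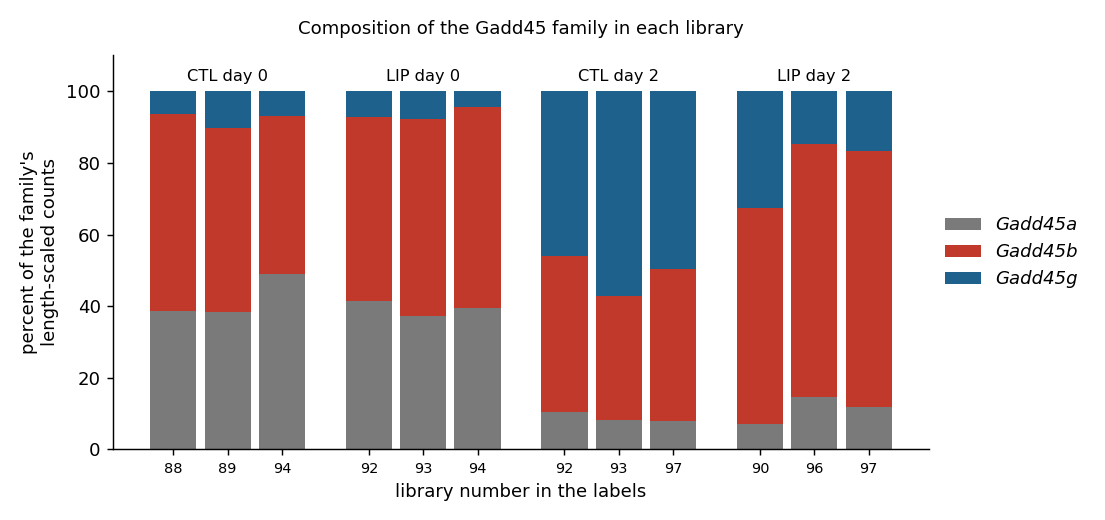
Share of Gadd45a, Gadd45b and Gadd45g (percent of the family's counts per length, y axis) in each of the 12 libraries, numbered as in the labels. Gadd45g takes 46.1% to 57.1% in cultured CTL libraries and 14.7% to 32.7% in cultured LIP libraries.

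The ratio of Gadd45b to Gadd45g counts in 1 library does not depend on how libraries are scaled to each other. In cultured CTL libraries it was 1.13 in 92 (95% interval 0.846 to 1.50), 0.726 in 93 (0.513 to 1.02) and 1.02 in 97 (0.774 to 1.34), so the counts of the 2 genes were about equal. In cultured LIP libraries it was 2.21 in 90 (1.75 to 2.82), 5.74 in 96 (4.40 to 7.59) and 5.18 in 97 (3.57 to 7.71). No interval of a LIP library touched that of a CTL library, and LIP 90 stood between CTL and the other LIP libraries. In uncultured libraries the ratio lay between 6 and 15.3, with wide intervals because of the 3 to 7 counts of Gadd45g. All these intervals cover counting error only.

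**Figure D4:**
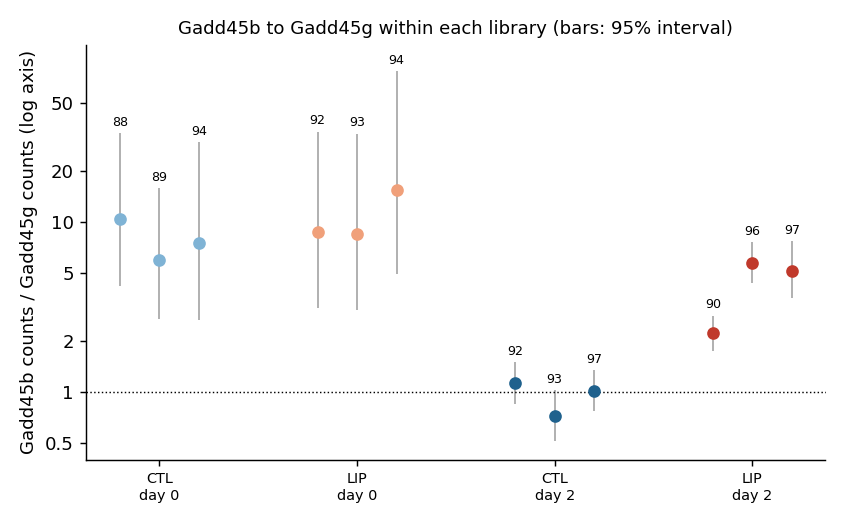
Counts of Gadd45b divided by counts of Gadd45g (log axis) in each library by group, with exact 95% intervals for counting error. Cultured CTL libraries lie around 1 (0.726 to 1.13) and cultured LIP libraries between 2.21 and 5.74.

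Genes outside the family that act with it were tested as lists, 47 genes in all in the lists other than that of the immediate early genes (Egr1 stands in both and is counted in both). None of the 44 tested on day 0, of the 45 tested on day 2 and of the 45 tested for the interaction had an adjusted p under 0.05 in edgeR's quasi-likelihood test. Of these, 8, 11 and 11 had an unadjusted p under 0.05, as did 13.9%, 16.5% and 15.9% of all genes, and DESeq2 called 1, 4 and 2, beside 1.46%, 3.48% and 3.43% of all genes. Without CTL 94, 6 list genes were called on day 0, where 4.59% of all genes were. Il18rap (1.16), Il12rb1 (1.09) and Il18r1 (0.79) were higher in LIP. Ppp1r15a (−1.47), Pcna (−0.46) and Myc (−0.35) were lower. Without LIP 90, 8 were called for the interaction, where 10.1% of all genes were. No list gene was called on day 2 or for the interaction when any other library was left out. In Cdkn1a, Tet1, Ifng and Ddit3, LIP 90 was the cultured LIP library nearest CTL. Leaving it out thus widened their differences and narrowed the spread, and the tests passed without LIP 90 below depend on that choice. Between the days, 33 of 45 (73.3%) were called in CTL cells and 35 of 45 (77.8%) in LIP cells, near the shares of all genes given above. Of all 15475 genes, 5456 were called higher and 5220 lower on day 2 in CTL cells, and 5665 and 5446 in LIP cells. Changes of the list genes are described by role in the next paragraphs, with log2 fold changes in CTL and then LIP cells. Their counts of rises and falls are to be read beside those of all genes.

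The kinases that GADD45 proteins act through shifted in both directions with culture. Map3k4, which encodes MEKK4 itself, fell by 0.79 (adjusted p = 2.64e-06) and fell by 0.63 (adjusted p = 2.02e-05), from 87.4 to 95.7 CPM in uncultured CTL cells to 50.2 to 56.4 in cultured ones. Of the 10 MAP kinase genes tested, 3 rose and 3 fell in CTL cells, and 3 rose and 4 fell in LIP cells, with medians of 0.04 and 0.18 beside −0.02 and −0.00281 over all genes. These counts were near the 69% and 71.8% of all genes called. Map2k3, a direct activator of p38, rose by 2.06 and 2.00, and Map2k6, the other p38 activator, fell by 2.61 in CTL and fell by 1.50 in LIP cells. Mapk8, which encodes JNK1, fell by 0.74 in CTL and fell by 0.71 in LIP cells. Map2k6 was measured at 2.54, 2.75 and 2.50 CPM in cultured CTL libraries and at 5.82, 5.43 and 3.37 CPM in cultured LIP libraries. These groups did not overlap, but the difference did not pass the test (log2 fold change 0.90, SE 0.28, adjusted p = 0.185, and 0.79, SE 0.31, adjusted p = 0.125 without LIP 90).

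The cell cycle partners rose steeply with culture, in 4 of 4 genes and in both groups (medians 5.20 and 4.82). Cdkn1a, the CDK inhibitor that is also a p53 target, rose by 9.15 (SE 0.33, adjusted p = 2.81e-10) and by 8.25 (SE 0.33, adjusted p = 3.68e-10), from counts at or near the floor. It was measured at 262, 303 and 215 CPM in cultured CTL libraries and at 212, 133 and 128 CPM in LIP 90, 96 and 97. LIP lay below CTL in every library, as for Gadd45g, with a log2 fold change of −0.74 (SE 0.21, adjusted p = 0.171). Without LIP 90 the difference passed the test (−0.98, SE 0.15, adjusted p = 0.00336). Cdk1 rose by 5.37 and 4.88, and Ccnb1 by 5.02 and 4.75. The known regulators of the family comprised 7 genes that rose and 2 that fell in CTL cells and 8 that rose and 2 that fell in LIP cells, of 12 tested (medians 0.71 and 0.82). Over all genes, 69% and 71.8% were called in either direction. Brca1 rose by 4.06 and 4.53, Egr1 by 2.32 and 2.93, Myc by 1.60 and 1.60, and Trp53, which encodes p53, by 0.77 and 0.58 (adjusted p = 5.41e-05 and 5.84e-04). Nfkb1, a subunit of the NF-kB factor known for inducing Gadd45b, rose by 1.57 and 1.64, and was measured at 595 to 827 CPM in cultured CTL libraries and at 687 to 845 CPM in cultured LIP libraries.

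The genes of active DNA demethylation, in which GADD45 proteins take part with TDG and TET enzymes, numbered 3 that rose and 2 that fell in each group, of 6 tested (medians 0.15 and 0.24). Apex1 rose by 2.72 and 2.67, Tdg by 1.68 and 2.01, and Tet1 had log2 fold changes of −1.45 and −2.34. Tet1 was measured at 14.8, 15.3 and 13.1 CPM in cultured CTL libraries and at 12.4, 6.93 and 4.66 CPM in LIP 90, 96 and 97 (log2 fold change −0.84, SE 0.31, adjusted p = 0.234). Without LIP 90 the value was −1.28 (SE 0.22, adjusted p = 0.00589). Of the 10 Th1 and interferon gamma genes, 4 rose and 3 fell in each group (medians 0.18 and 0.04). For both lists these counts stand beside 69% of all genes called in CTL cells and 71.8% in LIP cells. Ifng, which encodes interferon gamma, rose by 3.15 (adjusted p = 3.28e-05) and by 2.11 (adjusted p = 0.00108). It was measured at 40.6, 28.9 and 16.1 CPM in cultured CTL libraries and at 21.3, 11.5 and 7.00 CPM in LIP 90, 96 and 97, with overlapping groups and a log2 fold change of −1.10 (SE 0.42, adjusted p = 0.248). The list was mixed on day 2, with a median of −0.18 over its 10 genes. On the side of Ifng, Elk4 (−0.27, adjusted p = 0.329) had groups apart, and Tbx21 (−0.30), Il18r1 (−0.24), Stat4 (−0.18), Atf2 (−0.18) and Il18rap (−0.07) overlapped. On the other side, with groups apart, lay Eomes at 0.91 (adjusted p = 0.274), Il12rb2 at 0.70 (adjusted p = 0.150) and Il12rb1 at 0.35 (adjusted p = 0.260). Without LIP 90, Il12rb2 (0.84, adjusted p = 0.0101) and Il12rb1 (0.48, adjusted p = 0.0162) passed the test, as did Ifng in the opposite direction (−1.59, SE 0.37, adjusted p = 0.0209), and Eomes did not (1.18, adjusted p = 0.0643). Il18r1 and Il18rap, the subunits of the IL-18 receptor, had log2 fold changes of −4.60 and −4.47 in CTL cells and of −5.42 and −5.44 in LIP cells, and Il12rb1, a subunit of the IL-12 receptor, rose by 4.58 and 4.11.

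Some immediate early genes differed between LIP and CTL before culture. Of the 19 tested on day 0, 3 had lower levels in LIP cells at an adjusted p under 0.05 (0.427% of all genes were called), and 13 were lower at an unadjusted p under 0.05 (13.9% of all genes in either direction), with a median log2 fold change of −0.52 beside 0.01 over all genes. These were Fosb (−2.34, adjusted p = 0.00718), Fos (−1.89, adjusted p = 0.0286) and Jun (−1.28, adjusted p = 0.0199), all of which encode components of AP-1. CTL 94 lay below CTL 88 and 89 in these genes, for example at 50.9 CPM of Fos beside 163 and 130. Without CTL 94, 12 of the 19 were called, all lower, among them Fosb (−2.66, adjusted p = 9.44e-07), Fos (−2.25, adjusted p = 2.27e-07), Nr4a1 (−1.58) and Jun (−1.53), beside 4.59% of all genes. Without LIP 93 none of the 3 was called (adjusted p up to 0.286), with log2 fold changes of −2.41 for Fosb, −1.79 for Fos and −1.23 for Jun. Without LIP 94 none was called either, at −2.26, −1.92 and −1.19 in the same order, so the differences stayed close in size. Fos and Jun were not called without CTL 88 (−1.57 and −1.19), nor Fos without LIP 92 (−1.98). Markers of other cells also differed on day 0. The 8 pancreatic acinar genes summed to 13.5 and 6.01 CPM in LIP 93 and 94, to 0.551 in LIP 92 and to no more than 0.921 in CTL, and the 4 NK genes to 5.92 to 10.2 CPM in LIP and 2.05 to 5.92 in CTL. Their part in the result was not tested. On day 2 the median of the 21 genes tested was 0.14 beside −0.00581 over all genes. None of them was called by edgeR's quasi-likelihood test on all libraries or without any 1 library other than LIP 90. On all libraries 2 were higher and 3 lower at an unadjusted p under 0.05, and DESeq2 called 1 higher and 1 lower. Without LIP 90, when 13.9% of all genes were called, 5 of them were called higher (Atf3, Fosl2, Nr4a1, Egr1 and Ier2, at 0.40 to 0.89) and 2 lower (Fosb at −1.87 and Jund at −0.61).

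Another 3 genes share the GADD name without belonging to the family. Ddit3 (also called Gadd153, encoding CHOP) and Ppp1r15a (also called Gadd34) act in the integrated stress response, and Gadd45gip1 encodes a mitochondrial protein that was found as a partner of GADD45G. Ddit3 was measured at 8.45, 7.76 and 10.2 CPM in CTL 92, 93 and 97 of day 2 and at 10.3, 94.5 and 85.8 CPM in LIP 90, 96 and 97. LIP 96 and 97 thus stood far above all other libraries, and LIP 90 stood with CTL. The difference between the groups did not pass the test (log2 fold change 2.84, SE 0.68, adjusted p = 0.138), whereas without LIP 90 it did (3.37, SE 0.14, adjusted p = 2.20e-06). Atf4, which encodes the factor upstream of both stress genes, had the same order, at 154, 132 and 174 CPM in CTL and at 194, 489 and 451 CPM in LIP 90, 96 and 97 (adjusted p = 0.139, and 8.25e-05 without LIP 90). Ppp1r15a on day 0 was measured at 189.7, 225 and 72.6 CPM in CTL 88, 89 and 94 and at 98.2, 65.1 and 61.6 CPM in LIP 92, 93 and 94, with overlapping groups (log2 fold change −1.11, SE 0.31, adjusted p = 0.159, and −1.47, SE 0.15, adjusted p = 8.31e-05 without CTL 94). On day 2 it was measured at 45.0, 37.5 and 40.8 CPM in CTL and at 37.2, 95.7 and 84.1 CPM in LIP (adjusted p = 0.251, and 6.39e-04 without LIP 90). Without LIP 90, 10 of the 45 pathway genes (22.2%) were called on day 2, beside 13.9% of all genes, and those with the largest differences were Ddit3, Atf4 and Ifng (−1.59, SE 0.37, adjusted p = 0.0209). In LIP 90, Gadd45b (20.6 CPM), Atf4 and, narrowly, Ddit3 lay above the cultured CTL libraries and Ppp1r15a did not. Gadd45gip1 lay between 15.2 and 20.7 CPM in all cultured libraries.

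**Figure D5:**
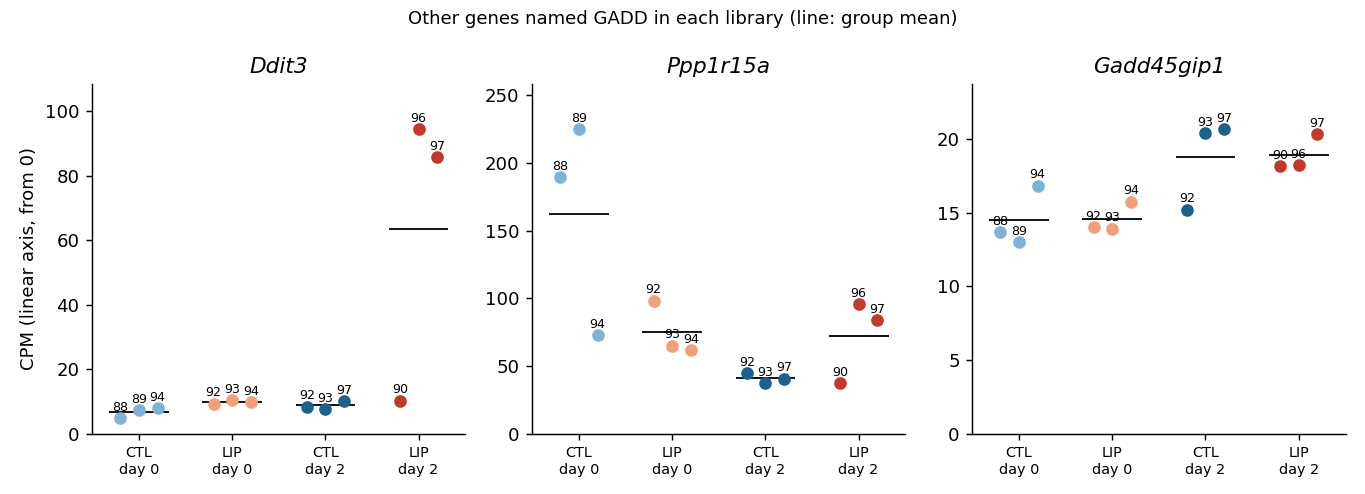
CPM of Ddit3, Ppp1r15a and Gadd45gip1 (one panel each, linear axis from 0) in the 12 libraries by group, with label numbers, and black lines for group means. Ddit3 lies at 94.5 and 85.8 CPM in LIP 96 and 97 of day 2 and at 10.3 CPM or below in LIP 90 of that day and in all CTL libraries.

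The genes whose log2 CPM ran most like each member over the 12 libraries, among 15475 genes, are given with Pearson's r as a description, since the libraries share the contrast between days. For Gadd45g they were Gnpda1 (r = 0.992), Odc1 (0.992), Cdc42bpa (0.991), Dusp6 (0.991) and Msh6 (0.991). For Gadd45b they were Pacsin2 (r = 0.967), Eif1 (0.963), Ngdn (0.961), Skil (0.961) and Eml1 (0.961). For Gadd45a they were Use1 (r = 0.925), Mdp1 (0.917), Ypel5 (0.915), BC005537 (0.902) and Cnppd1 (0.884). By Spearman's rho the first places went to Gm50322 for Gadd45g and Use1 for Gadd45a. For Gadd45b, Pop4, Cdin1, Eml1 and Gm18736 shared it (rho = 0.979). After the group means were taken away, the nearest genes were Adi1 for Gadd45g (r = 0.961), Cnpy2 for Gadd45b (0.911) and Serp1 for Gadd45a (0.981). Among the members themselves, Gadd45b and Gadd45g had r = 0.72 over the 12 libraries and 0.06 without the group means. Gadd45a and Gadd45b had r = 0.12 over the libraries and 0.77 without the group means, where LIP 96 of day 2 was high in both.

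The protein-coding genes nearest to the members did not pass edgeR's quasi-likelihood test on day 2, and neither did any other of the 14041 genes tested. The log2 fold change of LIP over CTL was 0.23 for Gng12 beside Gadd45a (SE 0.24, adjusted p = 0.679), 0.04 for Lmnb2 beside Gadd45b (SE 0.19, adjusted p = 0.929) and 0.08 for Sema4d beside Gadd45g (SE 0.11, adjusted p = 0.752). Without LIP 90 these were 0.06, −0.04 and 0.16 (adjusted p of 0.890, 0.928 and 0.320), where 13.9% of all genes were called. Between the days in CTL cells, Gng12 (1.52, adjusted p = 3.14e-05) and Lmnb2 (0.70, adjusted p = 0.00674) were called. Sema4d was not (−0.10, adjusted p = 0.332), and 69% of all genes were called there.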

How the data were processed

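The 12 libraries of splenic CD4+ T cell RNA were assigned to groups by their sample titles. The authors trimmed the reads (Trimmomatic 0.38 per the submitters' processing notes), aligned them to GRCm39 with HISAT2 and quantified genes by RSEM 1.3.0 with Bowtie2. The authors deposited its expected counts, with no normalization. In total 73267 of these values were not whole, and all were rounded. The deposited tables of each day served only for gene symbols and GO terms. They also hold fold changes and p-values, which were not used, and columns of 2 libraries without a label, which were left out.

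Genes were filtered with filterByExpr, normalized by TMM and tested with the quasi-likelihood test of edgeR 4.0.16 in R 4.3.3, with Benjamini-Hochberg adjustment over all genes tested. LIP was compared with CTL within each day, and the days and the interaction on all 12 libraries. Standard errors (SE) were derived as the absolute log2 fold change divided by the square root of the F statistic of that test. They are unreliable where the log2 fold change is very small. Log2 CPM for the nearest genes used a prior count of 2. Intervals are exact at 95%. The scripts were tested on simulated data, with calls at an adjusted p under 0.05 in edgeR's test. Simulated log2 fold changes of 1 were recovered for 75.3% of genes on day 0 and 54.1% on day 2. Of the genes called, 10.1% and 9.48% were false on these days. At log2 fold changes of 2 these false shares were 12.5% and 5.73%. Alternatives were RLE normalization, no filter, DESeq2 1.42.0, the other set of libraries in the fit, Spearman's rho, leaving out each library and, added after seeing the data, a replicate block. Named genes were the members, list genes called (the 3 largest where over 5) with Map3k4, Cdkn1a, Trp53 and Ifng, and the 5 nearest genes. Other list genes (Mapk8, Nfkb1, Egr1, Myc, Atf4, Ppp1r15a, Gadd45gip1, Mapk12, Cdk1, Ccnb1, Il12rb1, Il12rb2, Eomes, Elk4, Tbx21, Nr4a1, Tet1, Tdg, Smad3, Smad4 and Pcna among them) and the neighbours were named after their values were seen. The members and lists were chosen with earlier results of these data known.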

Additional observations from a re-analysis of the deposited data

Results flagged for a closer look

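Mapk12, which encodes a p38 kinase, was the 1 list gene whose LIP libraries all lay above CTL on day 0 (log2 fold change 0.22) and all below CTL on day 2 (−0.43). The difference between the days was −0.63 (SE 0.37) and did not pass edgeR's test of the interaction (adjusted p = 0.451). Its levels were low and the ranges close on day 0, at 1.66 to 1.84 CPM in CTL and 1.93 to 2.14 in LIP. Over all genes tested, groups lay apart for 19.1% on day 0 and 21.5% on day 2. The share of genes that turned like Mapk12 was not counted.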

How the results depend on the processing

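The log2 fold changes of the members kept their direction under RLE normalization, no filter, DESeq2 and the other set of libraries. Counts of genes called varied more. For LIP against CTL on day 0, where the main count was 60, no filter gave 645, DESeq2 206 and the fit on 12 libraries 12, and leaving out 1 library gave 13 (LIP 93) to 658 (CTL 94). The others gave 15 (LIP 94), 17 (CTL 88), 29 (LIP 92) and 96 (CTL 89). On day 2, where it was 0, no filter gave 662, DESeq2 489 and 12 libraries 775, and leaving out 1 library gave 0 to 2014 (LIP 90). For the interaction, where it was 8, no filter gave 815 and DESeq2 531, and leaving out 1 library gave 1 to 1596 (LIP 90). The cause was not tested. Leaving out 1 library moved the log2 fold changes of LIP against CTL as follows. On day 0 Gadd45a ranged from −0.37 to −0.09 and Gadd45b from −0.27 to 0.22. On day 2 Gadd45a ranged from 0.42 to 1.30, Gadd45b from 1.07 to 1.50 and Gadd45g from −1.01 to −0.49. For day 2 against day 0 in LIP, Gadd45a ranged from −0.31 to 0.57. For the interaction, Gadd45a ranged from 0.66 to 1.54 and Gadd45g from −0.54 to 0.00218. Replicate numbers did not pair the libraries of a comparison throughout, since LIP and CTL of a day share only 1 number and the days of a group none. Over all 12 libraries 4 numbers occur in a pair of groups, and the deviations of these libraries from their group means correlated at −0.055 to 0.104, so the libraries share a number and were not taken as paired. A fit of 12 libraries with the number as a replicate block, added after seeing the data, leaves 1 residual degree of freedom. It gave 6847 genes called between the days in CTL, 6884 in LIP and 550 for the interaction, and its log2 fold changes between the days were 1.58 for Gadd45b in CTL, and 1.81 for Gadd45b and 2.66 for Gadd45g in LIP. For the interaction they were 0.70 for Gadd45a, 0.23 for Gadd45b and −1.09 for Gadd45g. Counts of Gadd45g on day 0 (3 to 7) limit any statement on that gene there.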
